A study of Rattus norvegicus with 24 samples.

Results

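Collagen chains were taken as every gene of the normalized count table whose symbol is Col, a type number, the letter a and a chain number. The rule found 42 chains among 32883 genes, and no symbol repeated. Of these, 38 had a mean normalized count of at least 2 over the 24 samples and entered the tests, which covered 16287 genes. The 4 that did not were Col10a1 and Col23a1, at 0 in every sample, Col2a1, with a mean of 1.03 and counts above 0 in MABs-allo sample 7.2 (3.10) and MABs-allo-VEGF sample 11 (21.7) of 7d alone, and Col22a1, with a mean of 1.79. Col1a2, Col6a3 and Col21a1 were not analysed here.

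Urethras came from adult virgin female Sprague–Dawley rats in which vaginal delivery had been simulated (SVD) by crushing the pudendal nerve and distending the vagina, so the saline controls carry the same injury as the treated animals and no uninjured urethra entered the comparisons. An injection of cells or saline into the aorta followed. Mesoangioblasts (MABs) are vessel-associated progenitors that were grown from rat hind-limb muscle, and all injected cells were allogeneic, from a donor other than the recipient. MABs-allo carried a lentiviral reporter of green fluorescent protein and luciferase. MABs-allo-VEGF carried a lentivirus with VEGF165, driven by the SFFV promoter, together with a truncated CD34. The paper also tracked MABs-allo-VEGF by bioluminescence and describes sorting of the transduced MABs for green fluorescent protein. Controls received saline. The 6 groups were saline, MABs-allo and MABs-allo-VEGF at 3d and at 7d after SVD, with 4 samples each. Of the 7d MABs-allo-VEGF samples, replicates 6 and 7 are labelled as recovered. The label VEGF OE describes the injected cells, and the urethral tissue itself belonged to unmodified recipients. Titles of the MABs-allo samples at 3d carry the code 0.5HIA where all others start with the day, and they were grouped by their treatment label, which gives day 3.

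Libraries counted the 3ʹ ends of mRNAs and held 2170695 to 10166052 reads. Depth was lower in the MABs-allo samples at 3d (2170695 to 4491900 reads) and at 3d with MABs-allo-VEGF (3042531 to 4261098) than in any other group, where it started at 4851797. Genes for small noncoding RNAs, 2281 rows by name, took 0.0335 to 0.172% of the normalized counts in the MABs-allo samples at 3d and 0.0112 to 0.0215% in the 12 samples at 7d. The tissue label was matched by smooth muscle and urothelial markers, whose 8 genes each were detected in every group. In the saline sample 8 at 3d the urothelial and squamous markers summed to 2093 normalized counts, against 49009 to 62420 in the other saline samples of that day, and in the MABs-allo-VEGF sample 2 at 3d to 3809 against 56757 to 88141. Saline replicate 6 and MABs-allo-VEGF replicate 4 at 3d stood apart from their groups in several chains, and counts without both are given beside the main ones. Both samples were picked from earlier results of these data, so the counts and log2 fold changes without them are a description.

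Collagens are triple helices of alpha chains that cells secrete and join outside the cell. Fibrillar chains (types I, II, III, V, XI, XXIV and XXVII) build the ropes that give tissue its tensile strength, type IV chains form the mesh of basement membranes around vessels, nerves, muscle fibres and epithelium, and type VI chains form beaded filaments between the mesh and the fibrils. In the urethra, fibroblasts and smooth muscle cells lay down the types I and III of the wall.

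All 42 chains together took 1.91 to 2.71% of the normalized counts in the saline samples at 3d, 0.367 to 1.60% in the MABs-allo samples and 0.494 to 3.64% in the MABs-allo-VEGF samples. Every MABs-allo sample of 3d thus lay below every saline sample, while the MABs-allo-VEGF samples covered both. At 7d the shares were 1.11 to 1.74% in the saline samples, 1.41 to 2.87% in the MABs-allo samples and 1.20 to 5.06% in the MABs-allo-VEGF samples, and all 3 groups overlapped. These were bulk samples, in which fewer cells of a type and less RNA per cell cannot be told apart.

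The chains did not move as one family. Col1a1 and Col3a1, which held 48.6 to 90.2% of all collagen counts in a sample, had their lowest medians at 3d after MABs-allo, where neither passed the test against saline. The chains of lower count Col4a2, Col4a6 and Col24a1 were higher than saline at 3d after MABs-allo, and these 3 and Col27a1 fell to 7d after either cell type, to 34.2 normalized counts or fewer. After MABs-allo-VEGF at 3d their values overlapped with those of saline. A differentially expressed gene (DEG) was defined as one with an adjusted p below 0.05 in limma over all 16287 genes and a log2 fold change of (normalized count + 1) beyond 1 in either direction. By this rule, 15 chains were DEGs in at least 1 comparison and 23 of those tested in none. The calls of Col4a2, Col4a6 and Col24a1 against saline at 3d were kept in 13, 15 and 10 of 19 alternatives. With edgeR no chain was called in that comparison.

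Between MABs-allo and saline at 3d, 4 chains were higher and 1 was lower, which is 13.2% of the 38, where 12.3% of all genes tested were DEGs (9.4% higher and 2.86% lower). Without the saline sample 6 and the MABs-allo-VEGF sample 4, 9 chains were higher and 2 lower, and the share over all genes was 18.1%. From 3d to 7d after MABs-allo, 11 chains fell and 1 rose, or 31.6% of the 38, beside 23% of all genes tested (17% lower and 6.05% higher). After MABs-allo-VEGF, 8 chains fell and none rose, or 21.1%, beside 15.3% of all genes (13.1% lower and 2.24% higher). After saline a single chain fell, 2.63% of the 38, beside 3.19% of all genes, and without the 2 samples none did, beside 0.19%. The 5 chains that fell in both cell-treated groups were Col4a2, Col4a6, Col14a1, Col24a1 and Col27a1, 5 of the 11 and 5 of the 8. The share of chains called at 3d was near that of all genes in limma with all samples, but not without the 2 samples, where 11 chains were called, or with edgeR, where none was and 1342 of all genes were. Over time it was above it in both cell-treated groups, a difference that was not tested.

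Groups did not overlap for 5 of the 38 chains between MABs-allo and saline at 3d, where 14.7% of all genes were so separated. From 3d to 7d they did not overlap for 13 chains after MABs-allo (27% of all genes), 6 after MABs-allo-VEGF (21.8%) and 5 after saline (10.6%). At 7d they did not overlap for 1 chain between MABs-allo and saline (4.87%) and 2 between MABs-allo-VEGF and saline (6.04%). For 0 chains were the cell types separate at 3d (1.63%) or at 7d (1.84%), or MABs-allo-VEGF and saline at 3d (4%).

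The median log2 fold change of the 38 chains between MABs-allo and saline at 3d was 0.03, where that of all genes was 0.07. Over time the chains lay lower than the rest. Their median was −0.62 after MABs-allo, −0.38 after MABs-allo-VEGF and −0.73 after saline, beside −0.06, −0.05 and −0.05 over all genes.

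In the other comparisons no chain was a DEG in limma. Between MABs-allo-VEGF and saline at 3d, 4 chains had an unadjusted p below 0.05, and the share called over all genes was 0.0307%. Without saline sample 6 and MABs-allo-VEGF sample 4, 5 chains were higher in that comparison (Col4a2, Col4a3, Col14a1, Col19a1 and Col24a1), beside 13.6% of all genes. Between the cell types at 3d, 1 chain had an unadjusted p below 0.05, and 0.00614% of all genes were called (0.0184% without the 2 samples, with no chain). At 7d, 2 chains had an unadjusted p below 0.05 between MABs-allo and saline, 2 between MABs-allo-VEGF and saline and 1 between the 2 cell types, with 0% of all genes called each time. DESeq2 and edgeR on the recovered reads also called 0 chains in these 5 comparisons, for which their shares over all genes are not given here.

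**Figure D1:**
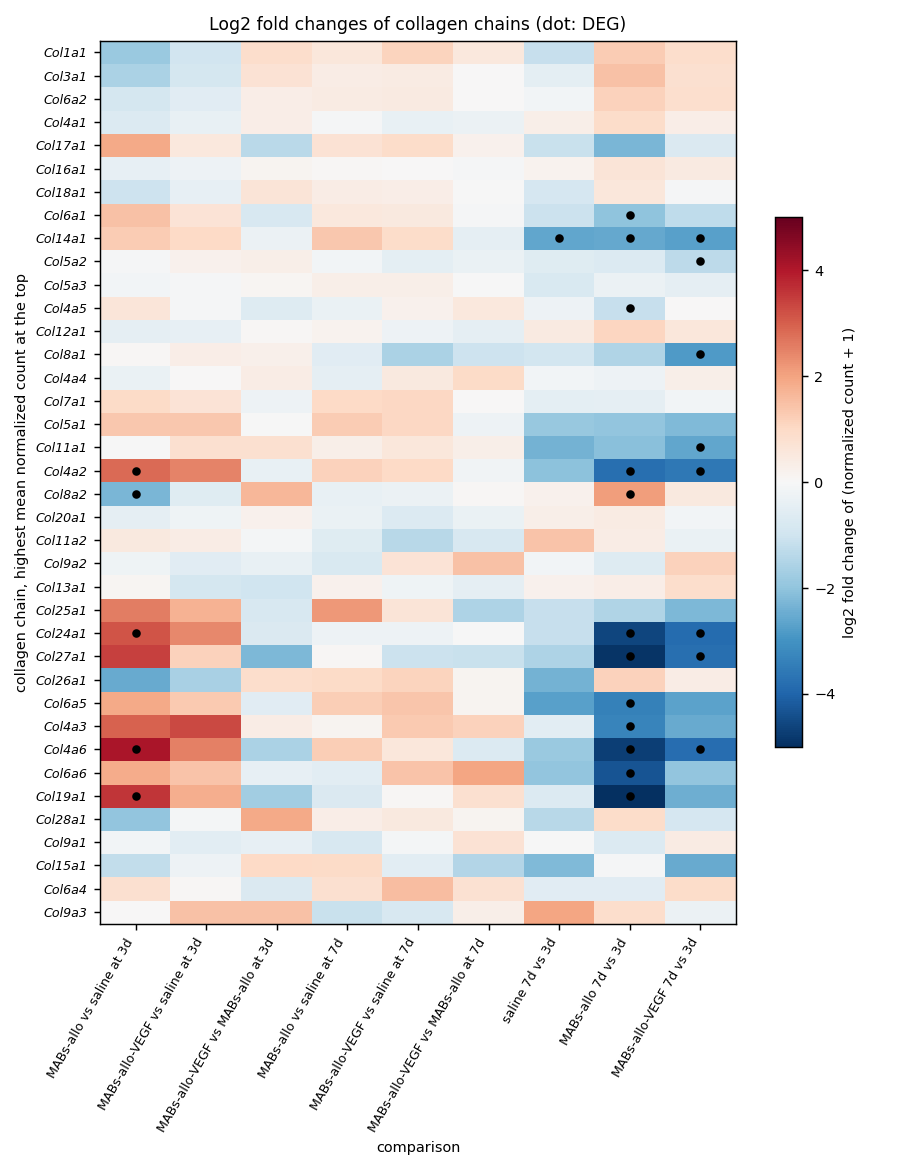
Log2 fold changes of (normalized count + 1) for the 38 chains tested (rows, by mean normalized count) in 9 comparisons (columns), with red for higher in the first-named group, blue for lower and a dot for a DEG. The column of MABs-allo at 7d against 3d holds more dots than any other, with 11 lower and 1 higher, and the 3 columns of 7d comparisons hold none.

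Values of single chains are normalized counts, given in the order of the replicate numbers. These are 6, 8, 9 and 10 for saline, 1 to 4 for MABs-allo and 1 to 4 for MABs-allo-VEGF at 3d, and 1, 2, 3 and 5 for saline, 7.2, 9, 11 and 13 for MABs-allo and 6, 7, 11 and 12 for MABs-allo-VEGF at 7d. A 3ʹ read counts for a gene only where the annotation covers its end, so ratios of one chain to another are followed across samples and their absolute size says nothing of how much of each chain was present. Folds between groups are ratios of mean normalized counts, and where no sample of a group exceeded 3 reads the fold is a lower bound set from 3 reads in each of its samples.

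Of the 9 fibrillar chains tested, 1 rose between saline and MABs-allo at 3d, 2 fell from 3d to 7d after MABs-allo, 4 fell after MABs-allo-VEGF and none passed the test after saline, where 8 of the 9 had a log2 fold change below 0. The median log2 fold change of the class was −0.01 between MABs-allo and saline at 3d, −0.69 over time after MABs-allo, −1.31 after MABs-allo-VEGF and −1.16 after saline. Beside this class and those below, 9.4% of all genes were higher and 2.86% lower between MABs-allo and saline at 3d. Over time 17% were lower after MABs-allo, 13.1% after MABs-allo-VEGF and 2.59% after saline. Counts of single classes are small and were not tested against these shares. Col1a1, the alpha 1 chain of type I collagen, was at 208056, 319269, 264192 and 225180 in the saline samples, 23232, 152909, 61132 and 106727 in the MABs-allo samples and 63582, 255933, 45586 and 364423 in the MABs-allo-VEGF samples at 3d. All 4 MABs-allo samples lay below all 4 saline samples, and the MABs-allo-VEGF samples lay on both sides. The log2 fold change between MABs-allo and saline was −1.85 ± 0.67 (SE; limma adjusted p = 0.0626), short of the threshold. Without the 2 samples named above it was −1.94 ± 0.69. At 7d Col1a1 was at 82862, 126298, 170652 and 87979.5 in the saline samples, 129029, 136280, 133903 and 337067 in the MABs-allo samples and 652633, 118640, 383228 and 109941 in the MABs-allo-VEGF samples. MABs-allo sample 13 and the MABs-allo-VEGF samples 6 and 11 stood well above the rest, and the groups overlapped. All saline samples of 7d lay below all of 3d, at a log2 fold change of −1.16 ± 0.67 (limma adjusted p = 0.367). Of the recovered pair, sample 6 had the highest Col1a1 count of all 24 samples and sample 7 lay within the range of saline.

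Col3a1 makes type III, a homotrimer of distensible walls such as vessels, bladder and urethra. At 3d its counts were 79396, 121556, 138062 and 137317 in the saline samples, 17807, 93644, 33428 and 40355 in the MABs-allo samples and 35563, 101013, 20614 and 215515 in the MABs-allo-VEGF samples. MABs-allo replicate 2 exceeded saline replicate 6, and the other 3 MABs-allo samples were lower than every saline sample. The log2 fold change was −1.59 ± 0.60 (limma adjusted p = 0.0739), and without the 2 samples it was −1.77 ± 0.57. At 7d Col3a1 counts were 63318, 105697, 89752 and 78376 in the saline samples, 88325, 73132, 92375 and 223426 in the MABs-allo samples and 244453, 58452, 139565 and 70120.3 in the MABs-allo-VEGF samples. The 3 groups overlapped, with MABs-allo sample 13 and MABs-allo-VEGF sample 6 on top. The ratio of Col3a1 to Col1a1 counts within a sample stayed between 0.364 and 0.891 throughout. It was 0.526 to 0.891 in the saline samples of 7d and 0.381 to 0.610 in those of 3d.

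**Figure D2:**
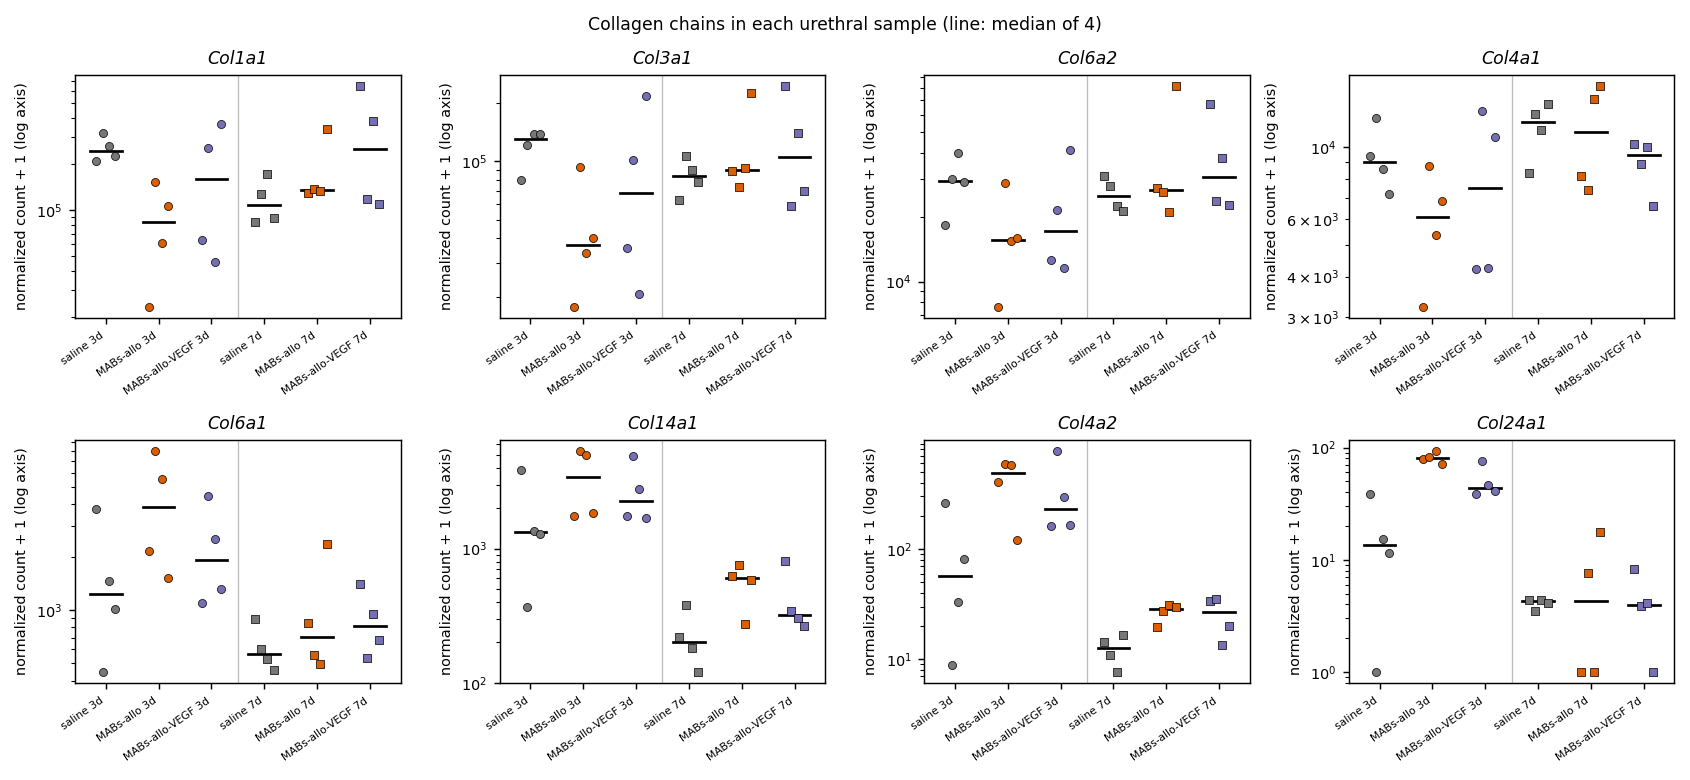
Normalized count + 1 on a log axis for 8 chains in the 24 samples, with circles for 3d, squares for 7d and a line at the median of 4. Col1a1 and Col3a1 have their lowest medians in the MABs-allo samples of 3d, whereas Col4a2 and Col24a1 have their highest medians there and are low at 7d, at no more than 34.2 and 16.6 normalized counts.

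Type V chains are laid into type I fibrils and set their number and width. Col5a1 was at 441, 43.1, 268 and 285 in the saline samples, 291, 990.2, 785 and 277 in the MABs-allo samples and 200.1, 1617, 343 and 557 in the MABs-allo-VEGF samples at 3d, and at 7d at 98.1, 54.8, 23.4 and 59.7 in the saline samples, 124, 76.2, 102 and 282 in the MABs-allo samples and 443, 148, 93.1 and 22.1 in the MABs-allo-VEGF samples. The groups of both days overlapped in each treatment, and no comparison of Col5a1 gave a DEG. Its log2 fold change from 3d to 7d was −1.95 ± 0.79 after MABs-allo, −2.19 ± 0.79 after MABs-allo-VEGF and −1.88 ± 0.79 after saline (limma adjusted p = 0.0638, 0.0525 and 0.193).

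Col5a2 gave 2293, 1329, 1469 and 1302 in the saline samples, 888, 2462, 1579 and 1394 in the MABs-allo samples and 919, 3434, 1165 and 2934 in the MABs-allo-VEGF samples at 3d. At 7d it gave 991, 973, 1042 and 1075 in the saline samples, 932, 543, 846 and 1677 in the MABs-allo samples and 1589, 399, 1009 and 451 in the MABs-allo-VEGF samples. MABs-allo-VEGF replicates 2 and 4 were the highest samples at 3d, and that group fell to 7d by 1.31 ± 0.44 on the log2 scale (limma adjusted p = 0.0369), with the groups overlapping. That call was kept in 9 of 19 alternatives. For Col5a3 the 3d counts were 1842, 1709, 989.9 and 964 in the saline samples, 1115, 1696, 886 and 1183 in the MABs-allo samples and 833, 3350.4, 585 and 1621 in the MABs-allo-VEGF samples. The 7d counts of Col5a3 were 727, 941, 666 and 779.8 in the saline samples, 1059, 539.7, 602 and 2457 in the MABs-allo samples and 1426, 1301, 1406 and 303 in the MABs-allo-VEGF samples. No comparison of Col5a3 gave a DEG, and only the saline groups of the 3 treatments did not overlap between the days, with every 7d sample below every 3d sample.

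Col11a1, a chain of type XI that nucleates thin fibrils and is best known from cartilage, was at 692, 698, 71.5 and 98.5 in the saline samples, 142, 383, 166 and 369 in the MABs-allo samples and 233, 1884, 288 and 245 in the MABs-allo-VEGF samples at 3d. At 7d Col11a1 was at 139, 22.4, 33.5 and 40.9 in the saline samples, 27.9, 39.7, 73.4 and 116 in the MABs-allo samples and 138, 17.1, 323 and 28.4 in the MABs-allo-VEGF samples. MABs-allo-VEGF replicate 2 of 3d exceeded all other samples, and the group fell to 7d by 2.59 ± 0.89 on the log2 scale (limma adjusted p = 0.0421), although replicate 11 of 7d reached into the 3d range. After MABs-allo the groups did not overlap, and the log2 fold change of −2.09 ± 0.89 missed the threshold (limma adjusted p = 0.0772). The other type XI chain of the table, Col11a2, was called in no comparison.

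Col24a1 and Col27a1 are minor fibrillar chains known from developing bone and cartilage. Col24a1 gave 37.9, 0, 14.3 and 10.6 in the saline samples, 78.1, 82.1, 92.3 and 70.5 in the MABs-allo samples and 37.8, 75.01, 45.4 and 40.1 in the MABs-allo-VEGF samples at 3d. At 7d Col24a1 gave 3.38, 2.49, 3.35 and 3.14 in the saline samples, 0, 6.62, 0 and 16.6 in the MABs-allo samples and 7.26, 2.85, 3.10 and 0 in the MABs-allo-VEGF samples, or 4 reads or fewer in each sample. All 4 MABs-allo samples of 3d exceeded all saline samples of that day, and all 8 cell-treated samples of 3d exceeded all 12 samples of 7d. Before scaling for depth, Col24a1 had 11, 15, 10 and 13 reads with MABs-allo and 11, 0, 4 and 3 with saline at 3d. Saline replicate 6 thus lay within the MABs-allo range of reads. The fold was 5.15 between MABs-allo and saline at 3d (log2 fold change 3.16 ± 0.97, limma adjusted p = 0.0324), 13.9 from 7d to 3d after MABs-allo (−4.58 ± 0.97 from 3d to 7d, limma adjusted p = 0.00123) and at least 5.19 after MABs-allo-VEGF (−3.85 ± 0.97, limma adjusted p = 0.0071). Col27a1 was at 37.9, 0, 7.15 and 3.52 in the saline samples, 107, 43.8, 83.1 and 43.4 in the MABs-allo samples and 0, 150.0, 40.4 and 4.45 in the MABs-allo-VEGF samples at 3d. At 7d it was at 3.38, 0, 3.35 and 0 in the saline samples, 0, 3.31, 0 and 4.15 in the MABs-allo samples and 0, 0, 0 and 0 in the MABs-allo-VEGF samples. MABs-allo samples of 3d stood apart from all saline samples in normalized counts, and MABs-allo-VEGF samples of 3d ran from 0 to the highest value of all. In reads the first 2 groups overlapped, with 15, 8, 9 and 8 for MABs-allo and 11, 0, 2 and 1 for saline. Col27a1 fell to 7d at least 7.54-fold after MABs-allo (−4.91 ± 1.20, limma adjusted p = 0.0035) and at least 5.10-fold after MABs-allo-VEGF (−3.76 ± 1.20, limma adjusted p = 0.0283). Between MABs-allo and saline at 3d it was short of the threshold, at 3.40 ± 1.20 (limma adjusted p = 0.0556).

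Col4a2 and Col4a6 were higher than saline at 3d after MABs-allo and fell to 7d after either cell type, and Col4a1 was called in no comparison. Of the 6 type IV chains tested, 2 rose between saline and MABs-allo at 3d, 4 fell from 3d to 7d after MABs-allo and 2 fell after MABs-allo-VEGF, with class medians of 1.72, −2.22 and −1.25 on the log2 scale. None was called after saline, where the median was −0.38. Col4a1 and Col4a2 encode the chains that combine in nearly every basement membrane, and the genes stand head to head. Their RefSeq transcript starts on the rat build GRCr8 are 76 bases apart. Col4a3, Col4a4, Col4a5 and Col4a6 supply the specialised meshes of the kidney, the eye and, for Col4a5 with Col4a6, smooth muscle.

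The stretch between the starts of Col4a2 and Col4a1 and the 250 bases before the start of Col4a3 are shown because Col4a2 and Col4a3 were called over time after MABs-allo, while Col4a1, which shares its start region with Col4a2, was not. Sequences are RefSeq GRCr8, written 5ʹ to 3ʹ on the strand given, with matches to the GC box (GGGCGG, searched on both strands) in capitals.
Col4a2 to Col4a1, chr16:84885521-84885596, plus strand: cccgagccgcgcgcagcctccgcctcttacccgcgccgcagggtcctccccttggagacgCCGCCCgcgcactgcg
Col4a3, chr9:91323740-91323989, plus strand: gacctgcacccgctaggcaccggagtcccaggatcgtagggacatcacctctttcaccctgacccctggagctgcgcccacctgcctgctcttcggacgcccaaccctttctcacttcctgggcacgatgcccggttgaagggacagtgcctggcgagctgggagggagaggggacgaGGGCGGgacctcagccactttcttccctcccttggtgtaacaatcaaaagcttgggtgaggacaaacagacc
Each held 1 GC box and no CCAAT box (CCAAT) or TATA box (TATAAA) on either strand. Over 33469 RefSeq rat promoters of 250 bases, 30.5% held a GC box, 34.0% a CCAAT box and 12.9% a TATA box, and in the 76 bases nearest to the start 18.1% held a GC box. The matches are letters in a window and were not tied to any measurement. By symbol, all 42 chains matched a RefSeq gene and 33 had a promoter in the table used.

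Col4a1 at 3d gave 9445, 12359, 8581 and 7211 in the saline samples, 3231, 8786, 5354 and 6862 in the MABs-allo samples and 4234, 12918, 4243 and 10766 in the MABs-allo-VEGF samples. At 7d it gave 8317, 12690.1, 11306 and 13581 in the saline samples, 8168, 7401, 14109 and 15517 in the MABs-allo samples and 10248, 8902, 10008 and 6585 in the MABs-allo-VEGF samples. The groups overlapped in every comparison. Its log2 fold change was −0.70 ± 0.35 between MABs-allo and saline at 3d (limma adjusted p = 0.176) and 0.92 ± 0.35 from 3d to 7d after MABs-allo (limma adjusted p = 0.0508).

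Col4a2 took other values in the same samples. At 3d it was at 258, 7.84, 32.2 and 80.9 in the saline samples, 405, 585, 582 and 119 in the MABs-allo samples and 162, 775, 293 and 165 in the MABs-allo-VEGF samples. At 7d it was at 13.5, 9.96, 6.70 and 15.7 in the saline samples, 18.6, 26.5, 30.03 and 29.1 in the MABs-allo samples and 32.6, 34.2, 12.4 and 18.9 in the MABs-allo-VEGF samples, at most 34.2 in any sample. Saline replicate 6 of 3d overlapped with the MABs-allo range, the other 3 saline samples lay below it, and every cell-treated sample of 3d lay above every sample of 7d. Against saline, Col4a2 at 3d was 4.46-fold higher with MABs-allo (log2 fold change 2.85 ± 0.75, limma adjusted p = 0.0174). It fell 16.2-fold to 7d after MABs-allo (−3.76 ± 0.75, limma adjusted p = 0.000797) and 14.2-fold after MABs-allo-VEGF (−3.56 ± 0.75, limma adjusted p = 0.00196). After saline the log2 fold change was −2.06 ± 0.75 (limma adjusted p = 0.126), and the difference in change between MABs-allo and saline was not called.

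Set against Col4a1 in the same sample, Col4a2 stood at 0.0634 to 2.73% in the saline samples of 3d, 1.74 to 12.5% in the MABs-allo samples and 1.53 to 6.90% in the MABs-allo-VEGF samples. In the 12 samples of 7d it stood at 0.0592 to 0.384%. All 8 cell-treated samples of 3d exceeded all samples of 7d, and the saline samples of 3d ranged from the 7d level to the cell-treated level, with replicate 6 highest. The share of small noncoding RNA was highest in the same saline sample. It was 0.0363% in saline replicate 6 and 0.0149 to 0.0213% in the other saline samples of 3d, and its part in the result was not tested.

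**Figure D3:**
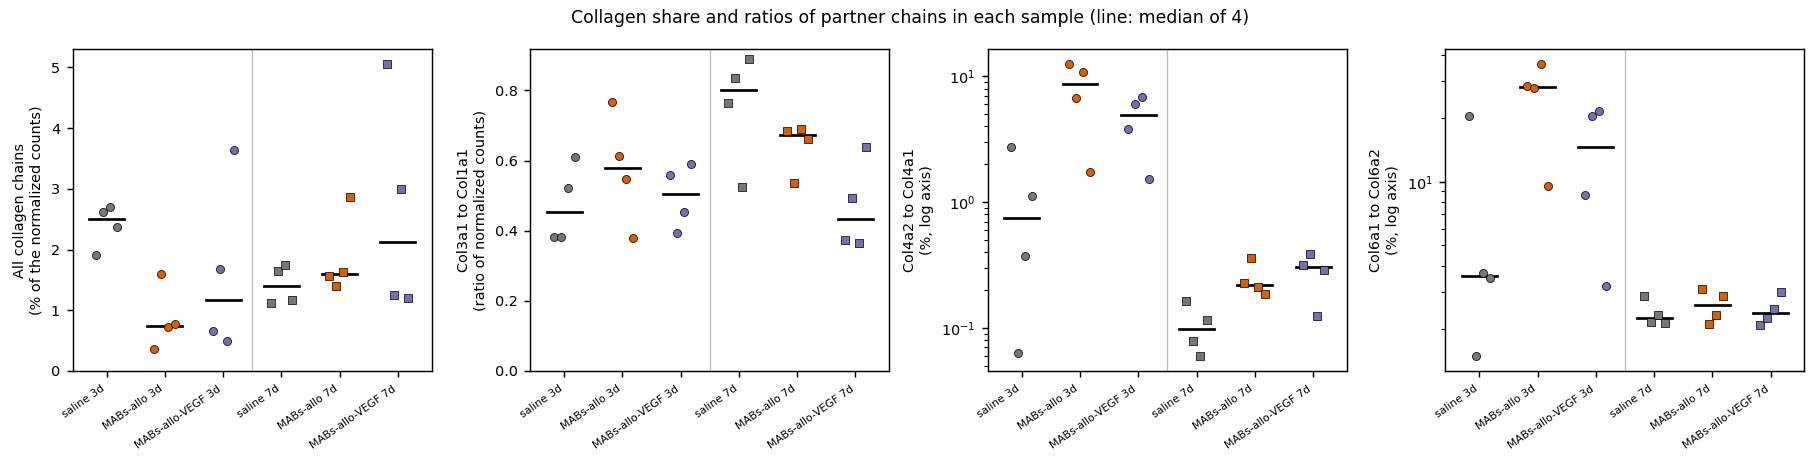
Share of all collagen chains in the normalized counts, ratio of Col3a1 to Col1a1, Col4a2 in percent of Col4a1 and Col6a1 in percent of Col6a2 (both on log axes) in each of the 24 samples, with a line at the median of 4. Col4a2 lies at 0.0592 to 0.384% of Col4a1 in all samples of 7d and at 1.53 to 12.5% in the cell-treated samples of 3d, while the ratio of Col3a1 to Col1a1 stays within 0.364 to 0.891.

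Col4a5 was at 906, 517, 2008 and 1108 in the saline samples, 1448, 1641, 1717 and 1307 in the MABs-allo samples and 1189.6, 617, 1357 and 935 in the MABs-allo-VEGF samples at 3d. At 7d Col4a5 was at 1251, 734, 649.7 and 877 in the saline samples, 1112, 1238, 399 and 398 in the MABs-allo samples and 1807, 953, 751 and 747 in the MABs-allo-VEGF samples. The MABs-allo samples of 3d lay within a narrow range above all MABs-allo samples of 7d, a fall of 1.94-fold (−1.15 ± 0.40, limma adjusted p = 0.0317). For Col4a6 the counts at 3d were 0, 0, 21.4 and 7.04 in the saline samples, 99.4, 54.7, 64.6 and 37.97 in the MABs-allo samples and 43.3, 8.33, 30.3 and 13.4 in the MABs-allo-VEGF samples. At 7d its counts were 0, 0, 0 and 0 in the saline samples, 3.10, 6.62, 0 and 0 in the MABs-allo samples and 3.63, 0, 0 and 0 in the MABs-allo-VEGF samples, which is 2 reads at most in any sample. All MABs-allo samples of 3d exceeded all saline samples, by 9.01-fold in the means (4.07 ± 0.93, limma adjusted p = 0.0102). Col4a6 fell to 7d at least 7.00-fold after MABs-allo (−4.70 ± 0.93, limma adjusted p = 0.000753) and at least 2.49-fold after MABs-allo-VEGF (−3.82 ± 0.93, limma adjusted p = 0.00576).

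Col4a3 counts at 3d were 13.8, 0, 0 and 17.6 in the saline samples, 56.8, 54.7, 9.23 and 27.1 in the MABs-allo samples and 64.9, 75.01, 35.3 and 13.4 in the MABs-allo-VEGF samples. At 7d they were 3.38, 2.49, 3.35 and 0 in the saline samples, 18.6, 0, 0 and 4.15 in the MABs-allo samples and 3.63, 11.4, 3.10 and 9.46 in the MABs-allo-VEGF samples. The MABs-allo groups of both days overlapped at 1 sample each, and the fall was 6.50-fold (−3.29 ± 1.06, limma adjusted p = 0.0214). At 3d the log2 fold change against saline was 2.93 ± 1.06 after MABs-allo and 3.30 ± 1.06 after MABs-allo-VEGF (limma adjusted p = 0.0626 and 0.125), comparisons that share the saline samples. Its neighbour on the chromosome, Col4a4, was called in no comparison and ranged from 88.4 to 803.5 over the 24 samples.

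Partners of type IV in the basement membrane gave 2 higher and none lower among 11 genes tested between MABs-allo and saline at 3d, the laminin chain Lamc1 (log2 fold change 1.34) and the linker Nid1 (2.54). From 3d to 7d after MABs-allo, Lamc1 and Nid1 fell by 1.84 and 3.17 on the log2 scale, and the laminin chain Lamb2 rose by 1.14. Lama1, another laminin chain, also passed as higher at 7d, at 0 in every MABs-allo sample of 3d and 3.10 to 16.6 at 7d, and no fold is given because 3 reads at 3d would exceed the 7d mean. After MABs-allo-VEGF, Lamc1 and Lama4 fell by 1.85 and 1.05 and Lamb2 rose by 1.13. No partner was a DEG after saline.

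Beaded filament and anchoring chains gave no DEG at 3d and, of 6 tested, 3 that fell to 7d after MABs-allo. Their class median was 1.21 between MABs-allo and saline at 3d, −1.30 over time after MABs-allo, −0.71 after MABs-allo-VEGF and −0.82 after saline. Col6a1 and Col6a2 are neighbours on the chromosome whose chains join in every type VI molecule. Col6a2 at 3d was at 18270.3, 29981, 39615 and 29085 in the saline samples, 7633, 28820.2, 15426 and 15884 in the MABs-allo samples and 12669, 21661, 11604 and 40906 in the MABs-allo-VEGF samples. At 7d Col6a2 was at 31040.3, 27815, 22546 and 21335 in the saline samples, 27360.1, 26165, 21215 and 82150.3 in the MABs-allo samples and 67422, 23775, 37811 and 22750.3 in the MABs-allo-VEGF samples. Every pair of groups overlapped, and its log2 fold change was −0.89 ± 0.46 between MABs-allo and saline at 3d and 1.13 ± 0.46 over time after MABs-allo (limma adjusted p = 0.186 and 0.0625).

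Col6a1 at 3d was at 3739, 447, 1458 and 1021 in the saline samples, 2166, 7987, 5567 and 1519 in the MABs-allo samples and 1098, 4459, 2522 and 1318 in the MABs-allo-VEGF samples. At 7d Col6a1 was at 896, 605, 529 and 459 in the saline samples, 846, 556, 494 and 2369.7 in the MABs-allo samples and 1411, 536, 949.6 and 681 in the MABs-allo-VEGF samples. MABs-allo replicates 2 and 3 and MABs-allo-VEGF replicate 2 of 3d held the highest counts, and MABs-allo sample 13 of 7d reached into the 3d range of its group. Col6a1 fell 4.04-fold to 7d after MABs-allo (−2.01 ± 0.59, limma adjusted p = 0.0128). Between MABs-allo and saline at 3d its log2 fold change of 1.47 ± 0.59 missed the threshold (limma adjusted p = 0.0923). Without the 2 samples it was 1.99 ± 0.59. Within samples, Col6a1 stood at 1.49 to 20.5% of Col6a2 in the saline samples of 3d, 9.56 to 36.1% in the MABs-allo samples and 3.22 to 21.7% in the MABs-allo-VEGF samples. At 7d it stood at 2.09 to 3.09% in all 12. Saline replicate 6 again had the highest ratio of its group, and the other 3 saline samples of 3d were at 1.49 to 3.68%.

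Col6a5 and Col6a6 encode chains that can stand in for Col6a3 in type VI. Col6a5 counts were 51.6, 3.92, 3.57 and 10.6 in the saline samples, 63.9, 82.1, 27.7 and 16.3 in the MABs-allo samples and 10.8, 108, 40.4 and 8.91 in the MABs-allo-VEGF samples at 3d. At 7d Col6a5 counts were 0, 0, 0 and 6.29 in the saline samples, 9.29, 3.31, 0 and 4.15 in the MABs-allo samples and 10.9, 5.70, 3.10 and 0 in the MABs-allo-VEGF samples. MABs-allo samples of 3d exceeded those of 7d in every case, and the means fell at least 5.18-fold (−3.38 ± 1.02, limma adjusted p = 0.0149). Col6a6 counts were 44.8, 3.92, 0 and 3.52 in the saline samples, 14.2, 5.47, 36.9 and 43.4 in the MABs-allo samples and 5.41, 16.7, 45.4 and 8.91 in the MABs-allo-VEGF samples at 3d. At 7d Col6a6 counts were 0, 0, 3.35 and 0 in the saline samples, 0, 0, 0 and 0 in the MABs-allo samples and 7.26, 5.70, 3.10 and 0 in the MABs-allo-VEGF samples, and so 0 in all MABs-allo samples. It fell at least 2.73-fold after MABs-allo (−4.33 ± 0.99, limma adjusted p = 0.0021). Col6a4 and the anchoring fibril chain Col7a1 were called in no comparison.

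Chains of the FACIT class sit on the surface of fibrils and link them to their surroundings. Of 8 tested, 1 rose between saline and MABs-allo at 3d, and from 3d to 7d 2 fell after MABs-allo, 1 after MABs-allo-VEGF and 1 after saline. Col14a1, which binds fibrils through decorin, was the single chain that fell in all 3 treatments. At 3d it was at 3881, 365, 1358 and 1291 in the saline samples, 1754, 5345, 5022 and 1849.8 in the MABs-allo samples and 1746, 4909, 2759.6 and 1692 in the MABs-allo-VEGF samples. At 7d it was at 219.9, 378, 181 and 119 in the saline samples, 626, 748, 274 and 585 in the MABs-allo samples and 813, 339, 301 and 265 in the MABs-allo-VEGF samples. All cell-treated samples of 3d exceeded all samples of 7d, and among the saline samples replicate 8 of 3d overlapped with the 7d range. The fall was 6.26-fold after MABs-allo (−2.54 ± 0.56, limma adjusted p = 0.00163), 6.47-fold after MABs-allo-VEGF (−2.70 ± 0.56, limma adjusted p = 0.00168) and 7.67-fold after saline (−2.60 ± 0.56, limma adjusted p = 0.0162). The call after saline was lost without saline sample 6 of 3d and without saline sample 5 of 7d, which each left 0 chains called.

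Col19a1, known from the basement membrane zone of muscle, is described although it ranks below the 20 chains chosen for full values, because it was called. It was at 10.3, 0, 0 and 3.52 in the saline samples, 14.2, 21.9, 83.1 and 32.5 in the MABs-allo samples and 32.4, 8.33, 25.2 and 0 in the MABs-allo-VEGF samples at 3d. At 7d it was above 0 in saline sample 3 and MABs-allo-VEGF sample 7 alone, at 6.70 and 8.56. All MABs-allo samples of 3d exceeded all saline samples of that day and all MABs-allo samples of 7d. The lowest of them, at 14.2, was close to the highest saline sample, at 10.3. Before scaling for depth the reads overlapped, at 2, 4, 9 and 6 with MABs-allo and 3, 0, 0 and 1 with saline. In the means the fold was at least 3.50 against saline (3.56 ± 1.08, limma adjusted p = 0.0305). Against 7d it was at least 4.14 (−4.98 ± 1.08 from 3d to 7d, limma adjusted p = 0.00147). Its neighbour Col9a1 and the other FACIT chains Col9a2, Col9a3, Col12a1, Col16a1 and Col20a1 were called in no comparison. Col12a1, which like Col14a1 coats fibrils under load, had a log2 fold change of 1.09 ± 0.51 after MABs-allo over time (limma adjusted p = 0.108).

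The network chains Col8a1 and Col8a2 form the lattice of type VIII, made by endothelium and smooth muscle of vessel walls and by corneal endothelium. Col8a1 at 3d was at 2441, 470.4, 332 and 475 in the saline samples, 206, 1953, 674 and 770.3 in the MABs-allo samples and 314, 3017, 348 and 1331 in the MABs-allo-VEGF samples. At 7d Col8a1 was at 244, 358, 208 and 786 in the saline samples, 186, 86.1, 1108 and 170.2 in the MABs-allo samples and 156, 77.0, 86.9 and 161 in the MABs-allo-VEGF samples. Saline replicate 6, MABs-allo replicate 2 and MABs-allo-VEGF replicates 2 and 4 were the high samples of 3d, and all MABs-allo-VEGF samples of 7d lay below those of 3d. The fall after MABs-allo-VEGF was 10.4-fold (−2.83 ± 0.79, limma adjusted p = 0.0138). Col8a2 at 3d was at 131, 443, 107 and 38.7 in the saline samples, 14.2, 38.3, 9.23 and 75.9 in the MABs-allo samples and 32.4, 275, 60.5 and 84.6 in the MABs-allo-VEGF samples. At 7d Col8a2 was at 179, 115, 127 and 164 in the saline samples, 89.8, 79.5, 118 and 183 in the MABs-allo samples and 97.9, 114, 391 and 41.0 in the MABs-allo-VEGF samples. MABs-allo samples of 3d were low, though replicate 4 reached above saline replicate 10. Against saline, Col8a2 at 3d was 5.23-fold lower with MABs-allo (−2.27 ± 0.74, limma adjusted p = 0.0422) and rose 3.42-fold to 7d after MABs-allo, with no overlap (2.10 ± 0.74, limma adjusted p = 0.0346). The first of these calls was kept in 8 of 19 alternatives and the second in 13.

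Transmembrane chains (Col13a1, Col17a1 and Col25a1), multiplexins (Col15a1 and Col18a1) and the remaining Col26a1 and Col28a1 gave no DEG. Among them Col17a1, the hemidesmosome collagen that anchors basal epithelial cells, is named after its values were seen. It was at 168.5 in saline sample 8 and 208.4 in MABs-allo-VEGF sample 2 of 3d, the samples whose urothelial and squamous markers were at 2093 and 3809, and ran from 506.3 to 20477 in the other 22. Its log2 fold change was 1.88 ± 0.98 between MABs-allo and saline at 3d and −2.28 ± 0.98 over time after MABs-allo (limma adjusted p = 0.192 and 0.0809). The basement membrane multiplexin Col18a1, the source of endostatin, had −1.03 ± 0.38 between MABs-allo and saline at 3d (limma adjusted p = 0.0659).

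Chains of low count and of high count could be set beside all genes of the same level. From 3d to 7d after MABs-allo, genes with a mean of 10 to 30 normalized counts had a median log2 fold change of −0.69 and an interquartile range of −2.48 to 0.76 (1778 genes), and the 8 chains in that range had a median of −4.46. Genes above 10000 had a median of 0.36 (190 genes), and the 3 chains there, Col1a1, Col3a1 and Col6a2, had 1.27. After MABs-allo-VEGF the medians at 10 to 30 were −0.67 over all genes and −2.59 over the 8 chains. After saline they were −0.41 and −1.72. The median of the 8 chains at 10 to 30 counts lay below the lower quartile of all genes of their level in all 3 treatments. So did the median of the 7 chains at 1000 to 3000 counts, at −0.69 after MABs-allo, −0.44 after MABs-allo-VEGF and −0.77 after saline. The lower quartiles of all genes there were −0.42, −0.34 and −0.29. At 100 to 300, 300 to 1000 and 3000 to 10000 counts the chain medians lay below the medians of all genes in all 3 treatments. Chains at 2 to 10 and at 30 to 100 counts did not share this. Their medians were −0.04 and −0.16 after MABs-allo, beside −0.43 and −0.50 over all genes. After MABs-allo-VEGF they were −0.28 and 0.28, beside −0.46 and −0.51, and after saline −0.57 and 0.05, beside −0.15 and −0.33. In the shallowest sample 1 read was worth up to 9.23 normalized counts, so that values of low-count chains rest on few reads.

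**Figure D4:**
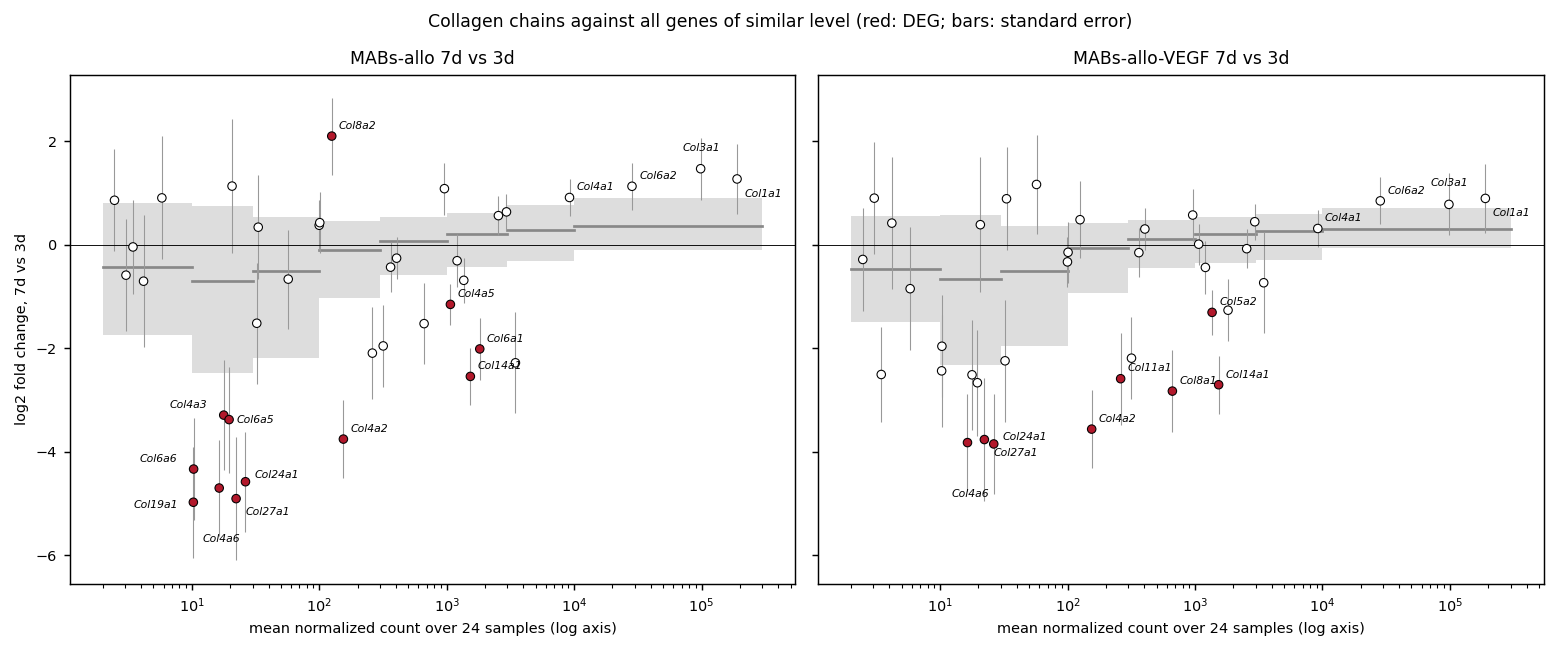
Log2 fold change from 3d to 7d of each chain (points with standard error, red for DEGs) against its mean normalized count on a log axis, for MABs-allo (left) and MABs-allo-VEGF (right). Grey bars give the interquartile range and grey lines the median of all genes in the same range of counts, and the 8 chains at 10 to 30 counts have medians of −4.46 and −2.59 beside −0.69 and −0.67 over all genes.

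Other genes of the pathway were counted from lists chosen with earlier results of these data known. Over all genes tested, 9.4% were higher and 2.86% lower between MABs-allo and saline at 3d. From 3d to 7d, 6.05% were higher and 17% lower after MABs-allo, and 2.24% and 13.1% after MABs-allo-VEGF. After saline 0.602% were higher and 2.59% lower. Counts of the basement membrane partners, of these lists and of the marker lists below were not tested against these shares. Small leucine-rich proteoglycans, which coat collagen fibrils, gave 5 lower of 7 tested between MABs-allo and saline at 3d, with a list median of −1.74. These were Kera (−3.43), Prelp (−1.86), Bgn (−1.74), Lum (−1.69) and, named after its values were seen, Dcn (−1.29), which binds type I fibrils. Over time after MABs-allo, Prelp rose by 1.30 and Bgn by 1.24, and after MABs-allo-VEGF Prelp rose by 1.22. None was called after saline.

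Of 31 tested genes for collagen synthesis and processing, 4 were lower and 2 higher between MABs-allo and saline at 3d, with a list median of −0.58. Among the lower were Pcolce, an enhancer of propeptide cleavage (−2.22), the procollagen protease Adamts2 (−1.29) and the transcription factor Creb3l1 (−1.27). The protease Adamts3 (3.97) was among the higher. Its counts were 62.0, 0, 0 and 0 in the saline samples and 18.5 to 60.2 in the MABs-allo samples. The groups thus overlapped, and the ratio of the means was 3.06. Over time after MABs-allo, Pcolce and the collagen chaperone Serpinh1 rose by 1.55 and 1.41, and the galactosyltransferase Colgalt2 and the export factor Mia2 fell by 4.07 and 2.09. After MABs-allo-VEGF, Colgalt2, Adamts3, Mia2 and the prolyl hydroxylase P4ha1 fell by 4.41, 4.22, 1.91 and 1.16.

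Collagen receptors gave no DEG among 9 tested at 3d. Ddr2, a receptor kinase for fibrillar collagen, fell from 3d to 7d in each treatment, by 2.07 on the log2 scale after saline, 2.25 after MABs-allo and 2.56 after MABs-allo-VEGF (limma adjusted p = 0.0167, 0.000755 and 0.000504). No other receptor of the list was called over time.

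Markers of the cells that make collagen were set beside these values. Fibroblast markers, 8 genes all detected in each group, summed to 25952 to 43068 normalized counts in the saline samples of 3d, 6333 to 28968 in the MABs-allo samples and 12750 to 35078 in the MABs-allo-VEGF samples. Of the 8, Fbln1 alone was lower between MABs-allo and saline at 3d, by 2.05 on the log2 scale. At 7d the sums were 16712 to 56868 over the 12 samples, and MABs-allo sample 13, with the highest Col1a1 of its group, had the highest sum. MABs-allo-VEGF sample 6 of 7d, with the highest Col1a1 of all 24 samples, had 39399, beside 24475 to 39253 in the saline samples of 7d. Smooth muscle markers, also 8, summed to 24165 to 191254 in all samples of 3d and 124098 to 324567 in those of 7d. The part of either in the collagen values was not tested. Of 9 cartilage and bone markers, Sox9 (856.3 to 5510) and Runx2 (21.7 to 766.8) were detected in all 24 samples, Comp, Hapln1, Bglap and Ibsp in some samples of every group, and Sp7 in none. Acan and Matn3 were at 0 in 3 and 5 of the 6 groups.

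Other marker lists between MABs-allo and saline at 3d gave 2 lower of 6 macrophage genes (Csf1r and C1qa, by 2.11 and 1.74 on the log2 scale), 1 lower of 5 endothelial genes (Emcn), 2 higher of 6 skeletal muscle genes (Mylpf and Tnnt3), 1 higher of 8 urothelial and squamous genes (Krt14) and none of 5 pericyte, 5 Schwann, 6 adipocyte, 8 smooth muscle and 6 cartilage and bone genes tested. From 3d to 7d after MABs-allo, 6 of 6 adipocyte, 3 of 8 smooth muscle and 3 of 8 fibroblast genes rose, with 1 each of the macrophage and endothelial genes, and of the urothelial genes Upk2 rose and Krt14 fell. After MABs-allo-VEGF, Acta2 of the smooth muscle, Emcn of the endothelial and Ibsp of the cartilage and bone genes rose, and Fap of the fibroblast genes fell by 4.32. After saline, 3 adipocyte genes, 2 smooth muscle genes and Upk2 rose, and Kdr and Runx2 fell. No pericyte, Schwann or skeletal muscle gene was called over time.

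Whether a change over time differed between treatments was tested directly. For the change after MABs-allo minus that after saline, no chain passed in limma and 6 had an unadjusted p below 0.05, with 0% of all genes called. Col1a1 had a difference of 2.44 ± 0.95 on the log2 scale (limma adjusted p = 0.276) and Col19a1 of −4.29 ± 1.52 (limma adjusted p = 0.246). Without the 2 samples, Col19a1 was called, at −4.99 ± 1.30, beside 3.56% of all genes. As those samples were picked from these data, that call is a description. For MABs-allo-VEGF minus saline, no chain passed and 2 had an unadjusted p below 0.05, with 0% of all genes called. DESeq2 and edgeR called 0 chains in either, with their shares over all genes not given here.

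Over 494 repeats of the 26 calls with another filter, scaling, test or set of samples, 399 kept the call, 95 lost it and 0 reversed. Kept in all 19 alternatives were the falls of Col4a2, Col4a6, Col14a1 and Col24a1 after either cell type and of Col6a6, Col19a1 and Col27a1 after MABs-allo. Kept in 10 of 19 were Col24a1 between MABs-allo and saline at 3d, Col4a5 over time after MABs-allo and Col11a1 after MABs-allo-VEGF. Of the other chains higher with MABs-allo at 3d, Col4a6 was kept in 15, Col4a2 in 13 and Col19a1 in 11. The number called at 3d was less stable. Between MABs-allo and saline it was 0 with edgeR, with 10 chains at an unadjusted p below 0.05, and 0 when only those groups entered limma, with 11. It was also 0 without saline sample 8, 1 without MABs-allo sample 1 or 3 or saline sample 9, and 9 without saline sample 6. Scaling every sample to the same total moved the median of all genes from 0.07 to −0.19 and gave 4 higher and 4 lower chains, and quantile normalization moved it to −0.14 and gave 3 higher and 3 lower, beside 4 and 1 as deposited. Over time after MABs-allo, same-total scaling gave 4 higher and 10 lower beside 1 and 11.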

How the data were processed

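Total RNA of urethral tissue was sequenced with a QuantSeq 3ʹ mRNA kit in 24 samples, and each sample was placed in its group by its treatment label. The authors trimmed reads with fastq-mcf, aligned them with HISAT2 to the rat genome Rnor6.0, tallied uniquely mapped reads for each gene by HT-seq Count, then scaled the counts with DESeq2 size factors. The deposited normalized counts (signal per gene) were whole multiples of the value of 1 read in each sample, in 100% of the values (tolerance 0.01), and the reads were recovered from them. Recovered totals ran from 2170695 to 10166052 reads. A single read equalled 1.67 to 9.23 normalized counts, depending on the sample. Strand setting of the counting is not given in the sources used here.

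limma 3.58.1 in R 4.3.3 (lmFit and eBayes with trend) was run on log2(normalized count + 1) for the 16287 genes with a mean of at least 2. All 6 groups entered a single fit with 9 comparisons and 2 differences of change. The pseudocount shrinks the log2 fold changes of low genes, but as differences of mean logs they can also exceed the ratio of mean counts where a sample is near 0. Benjamini-Hochberg adjustment covered all genes tested. Alternatives were edgeR 4.0.16 (quasi-likelihood), DESeq2 1.42.0 with ashr 2.2.63, other filters, pseudocounts and scalings, quality weights, thinned reads, fits of only the groups compared and samples left out. On simulated data for MABs-allo against saline at 3d, limma recovered 142 of 200 genes changed by 2 on the log2 scale among 16287, with 16 false calls, edgeR 141 with 8 and DESeq2 with ashr 162 with 29. The changed genes were drawn only from those of higher mean count. Chains of low count such as Col24a1 (mean 26.4) and Col19a1 (mean 10.3) lay below that range, so the recovery does not cover them.

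Replicates differed beyond sampling noise in each of 36 pairs (chi-square per degree of freedom 9.00 to 121.4). Samples are separate animals as far as the design text states it, and p-values measure the spread between these samples. Full values are given for chains of types I, III and V, Col4a1, Col4a2, Col6a1, Col6a2 and every chain called in a comparison, limited to the 20 with the highest mean, and up to 4 called genes are named per list and comparison. The chains, classes and lists were chosen with earlier results of these data known. Paralogous chains that share sequence may share reads. Limits of detection cover counting error only.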

Additional observations from a re-analysis of the deposited data

Results flagged for a closer look

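In 7 of 120 sets of 4 samples, a single sample stood far from the others by Dixon's test. Its usual chance rate of about 1 in 20 does not hold for counts with many values at 0. Col1a1 was at 337067 normalized counts in MABs-allo sample 13 of 7d, above 129029 to 136280 in the other 3, and this sample also had the highest fibroblast marker sum of all 24 samples, 56868. The part of those cells in the value was not tested. Col5a3 was at 302.6 in MABs-allo-VEGF sample 12 of 7d, below 1301 to 1426 in the others. Col11a1 was at 1884 in MABs-allo-VEGF sample 2 of 3d, above 232.5 to 287.6, in the sample whose urothelial and squamous markers were at 3809. The other 4 rest on 1 or 2 reads. Col6a5 was at 6.29 in saline sample 5 of 7d and Col4a6 at 3.63 in MABs-allo-VEGF sample 6 of 7d, each with 0 in the other 3. Col6a6 was at 3.35 in saline sample 3 of 7d, also with 0 in the others. Where the others are all at 0, any count above 0 is flagged, so such sets show no outlier. Col4a3 was at 0 in saline sample 5 of 7d, below 2.49 to 3.38.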

How the results depend on the processing

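Between MABs-allo and saline at 3d, 5 chains were called, against 0 with edgeR, 0 with only the groups compared, 1 with thinned reads, 8 with the same total and 11 without saline sample 6 and MABs-allo-VEGF sample 4 of 3d. Leaving out 1 replicate gave 0 to 9, with 0 without saline sample 8, 1 without MABs-allo sample 1 or 3 or saline sample 9 and 9 without saline sample 6. Between MABs-allo-VEGF and saline at 3d, 0 became 2 with quality weights and 5 without those 2 samples, and leaving out 1 replicate gave 0 to 2, with 2 without saline sample 6 or MABs-allo-VEGF sample 4. After saline over time, 1 became 4 with DESeq2, 2 with edgeR, 0 with only the groups compared, 8 with quality weights and 0 without the 2 samples, and leaving out 1 replicate gave 0 to 3. After MABs-allo over time, 12 stayed within 1.5 times under every alternative (10 to 15, and 9 to 13 with 1 replicate left out). After MABs-allo-VEGF, 8 ranged from 6 to 11, and from 5 to 9 with 1 replicate left out, with 5 without sample 2 of 3d or sample 12 of 7d. The difference of change after MABs-allo went from 0 to 1 without the 2 samples. The other comparisons gave 0 throughout. The cause of these differences was not tested. Shares over all genes are given here for some of these settings only, so a count of chains alone shows no excess over all genes. With the same total, all genes split into 1102 higher and 1021 lower between MABs-allo and saline at 3d, and into 1253 and 975 with quantile normalization, beside 1531 and 466. Over time after MABs-allo they split into 1626 and 2356 or 1847 and 2186, beside 986 and 2765.

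Replicate numbers are shared by MABs-allo and MABs-allo-VEGF at 3d. Deviations of same-numbered samples correlated at 0.222, 0.151, 0.0734 and 0.254, all positive, and 3 of 4 MABs-allo samples correlated best with their own number, a hint of pairing from the data, not from the design. The labels name no shared litter, batch or day, and replicate 3 fell short of the correlation required of every pair, so the fit without pairs was kept. With the replicate number as a block, 0 chains were called, with 5 at an unadjusted p below 0.05. Chains of few reads are limited by depth, which was lowest at 3d after MABs-allo.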
